A study of Mus musculus with 6 samples.

Results

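Interleukin 33 (IL-33), its receptor ST2 and the genes of the regulatory T cells that respond to it were followed in regenerating mouse muscle. The genes are Il1rl1 (which encodes ST2), Il33, Il1rap, Foxp3, Areg, Il2ra, Ctla4 and Ikzf2, found by Ensembl identifier, and they are 8 of the 52369 genes in the deposited expression table. Il1rl1 was chosen because it differed between the groups in these same libraries, and the other 7 as its known partners with results of these data in view. The difference between groups is therefore given as a description, and no p-value is read as a test for any of the 8 genes.

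The study asked about Linc-smad7, a long non-coding RNA, in muscle regeneration, and its title names the microRNA miR-125b. RNA was sequenced from the tibialis anterior, a muscle of the lower leg, in 3 libraries of a Linc-smad7 overexpression group, called L7, and 3 libraries of a Control group. All mice were C57BL/6 and labelled as 6 weeks old. In both groups the muscle had been injected at 5 weeks of age with 50 µl of 10 µM cardiotoxin (CTX), a snake venom toxin that kills muscle fibres so that new ones form. In both groups 6.25 µg of pcDNA3.1 plasmid with a transfection reagent was injected into the muscle on days 0.5, 2 and 4, with harvest on day 7. Not given by the labels are the insert of the Control plasmid, the share of cells that took up plasmid, the sex of the mice, and whether each library came from its own mouse. The p-values given for other genes therefore measure the spread between these libraries, which may be technical in part.

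IL-33 is a cytokine of the interleukin 1 family that sits in the nucleus of stromal cells and is released as an alarm signal when tissue is damaged. It binds ST2, which pairs with the accessory chain IL-1RAcP, the product of Il1rap, and signals through MyD88 and IRAK kinases to NF-κB and p38. In injured mouse muscle, fibro-adipogenic progenitors are a known source of IL-33, and regulatory T cells that carry ST2 gather there, release amphiregulin (the product of Areg) and aid repair. ST2 is also carried by mast cells, group 2 innate lymphoid cells and eosinophils.

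Mouse Il1rl1 lies on the plus strand of chromosome 1 (mm10, chr1:40429570-40465415) and is transcribed from more than 1 start, so its start regions are shown because the level of this gene is what the results turn on. The RefSeq promoter windows, each running from 250 bases before a start to 50 bases after it (build GRCm38.p6, plus strand), hold these sequences at chr1:40429320-40429619 for the upstream start and chr1:40439379-40439678 for the downstream start. Capitals mark GATAA or GATAG on either strand, the core that GATA factors such as GATA3 of T cells and innate lymphoid cells recognise.
Il1rl1 upstream window: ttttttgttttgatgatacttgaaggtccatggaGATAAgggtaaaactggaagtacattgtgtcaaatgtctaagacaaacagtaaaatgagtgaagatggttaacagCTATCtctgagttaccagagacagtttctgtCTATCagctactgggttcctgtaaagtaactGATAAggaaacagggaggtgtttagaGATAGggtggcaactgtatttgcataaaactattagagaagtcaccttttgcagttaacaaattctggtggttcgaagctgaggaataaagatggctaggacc
Il1rl1 downstream window: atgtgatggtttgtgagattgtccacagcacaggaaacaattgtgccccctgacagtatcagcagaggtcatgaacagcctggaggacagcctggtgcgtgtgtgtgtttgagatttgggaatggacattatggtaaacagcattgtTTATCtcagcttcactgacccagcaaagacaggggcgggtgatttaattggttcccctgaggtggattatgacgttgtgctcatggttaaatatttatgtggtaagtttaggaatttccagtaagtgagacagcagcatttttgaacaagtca
The upstream window held 5 such matches, 2 of GATAA and 3 of GATAG, none overlapping another. At least 5 were present in 0.219% of 32851 mouse promoter windows of the same length. The downstream window, whose start lies 10059 bases further on, held 1 match, and at least 1 was present in 41.6% of windows. Of the 8 genes, 7 had promoter windows in the RefSeq table, 10 in all. Foxp3 had 2 matches in one of its windows and 1 in the other, Il33 had 1 and 0, and the windows of Ctla4, Il2ra, Areg and Il1rap had 0. TGANTCA, an AP-1 core, was in 0 of the 10 windows and in 7.81% of all windows on either strand. TTCNNNGAA, a STAT core, was in 1 of the 10, a Foxp3 window, and in 8.30% of all windows. The shares of windows do not allow for base composition. Such matches describe sequence only, and binding of these factors was not tested.

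The annotation lists 5 Il1rl1 transcripts, of which 2 encode 567 codons and 2 encode 337 codons. The long form is the membrane receptor and the short form is the soluble ST2 that binds IL-33 without signalling. The deposited FPKM (fragments per kilobase of gene and of library depth, a level per length) is 1 value per gene, so these forms are not separated here.

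The mature miR-125b-5p that the study's title names is shown because its seed can be looked for in the 8 genes. It is identical from both of its loci (RefSeq, GRCm38.p6, chr9:41581940-41581961 and chr16:77646279-77646300), and capitals mark the seed, bases 2 to 8.
miR-125b-5p: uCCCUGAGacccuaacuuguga
The matching site CTCAGGG occurred in the longest annotated 3′ untranslated region of 1 of the 8 genes, against 13.1% of 21037 genes. The gene was Il1rap, with the site in capitals at chr16:26715879-26715905 (mm10, plus strand).
Il1rap site: caaaagcgctCTCAGGGcatttttcac
The untranslated regions of Il1rl1, Il33, Foxp3, Areg, Il2ra, Ctla4 and Ikzf2 held 0 copies. A match of these letters describes sequence and does not show binding.

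The 6 libraries held 19420012 to 24663153 reads in genes. L7 replicate 3 stood apart, with correlations over genes of 0.920 to 0.951 with the other 5, which reached 0.979 to 0.989 among themselves. Its 10 most-read genes held 14.1% of all its reads (6.57% to 8.40% in the rest), and its scaling factor by the median of ratios was 0.774 (1.03 to 1.10 in the rest). More than 50 reads of Y-linked genes were found in 3 of the 6 libraries, 1 of L7 and 2 of Control. Each group thus held libraries on both sides of that count. The sex of the mice may therefore differ within groups and between them. The median difference between L7 and Control over the 14788 tested genes was -0.15 on the log2(FPKM + 1) scale, and with median of ratios scaling it was -0.0029. Differences of the size of that shift therefore depend on the scaling.

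Among the IL-33 receptor genes, the receptor itself was low in L7. Il1rl1, the IL-33 binding chain, had 2.81, 3.96 and 0.921 FPKM in the L7 libraries, against 9.04, 8.41 and 6.14 FPKM in the Control libraries. Every L7 library lay below every Control library, and L7 replicate 3 was the lowest of all. Such a separation was found in 13.7% of all tested genes in this direction, and for Il1rl1 nothing is read from it because the gene was chosen by this contrast. The means were 2.56 ± 1.54 FPKM in L7 and 7.86 ± 1.53 FPKM in Control (SD, n = 3 each), a difference of -1.40 ± 0.35 (SE) on the log2(FPKM + 1) scale. These levels rest on 182, 240 and 57 reads in L7, against 552, 477 and 442 reads in Control. Without L7 replicate 3 the difference was -1.01. In the authors' deposited table Il1rl1 had a log2 fold change of -1.52 and an adjusted p of 0.0229. That table gave an adjusted p under 0.05 to 0.0284% of its 31690 genes, and Il1rl1 was the 1 of the 8 genes among them. In that table it was also the 1 of the 8 lower at an unadjusted p under 0.05, as 0.751% of its genes were, and the rule used that contrast. By limma 2 of the 8, Il1rl1 and Il2ra, were lower at an unadjusted p under 0.05, beside 4.25% of all tested genes. Nothing is read from these counts.

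Il33, the ligand, was the most abundant of the 8 genes. It had 17.9, 18.5 and 12.5 FPKM in the L7 libraries and 21.6, 13.8 and 25.9 FPKM in the Control libraries. The groups overlapped, since Control replicate 2 lay below L7 replicates 1 and 2, and the difference was -0.28 ± 0.26. It was -0.11 without L7 replicate 3, -0.53 and -0.10 without Control replicates 2 and 3, and -0.12 with median of ratios scaling. Il1rap, the signalling partner of ST2 and of some other interleukin 1 receptors, had 4.32, 3.05 and 1.75 FPKM in L7 and 4.74, 4.21 and 4.95 FPKM in Control. Only L7 replicate 1 reached the Control range, and the difference was -0.53 ± 0.25, or -0.28 without L7 replicate 3.

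**Figure D1:**
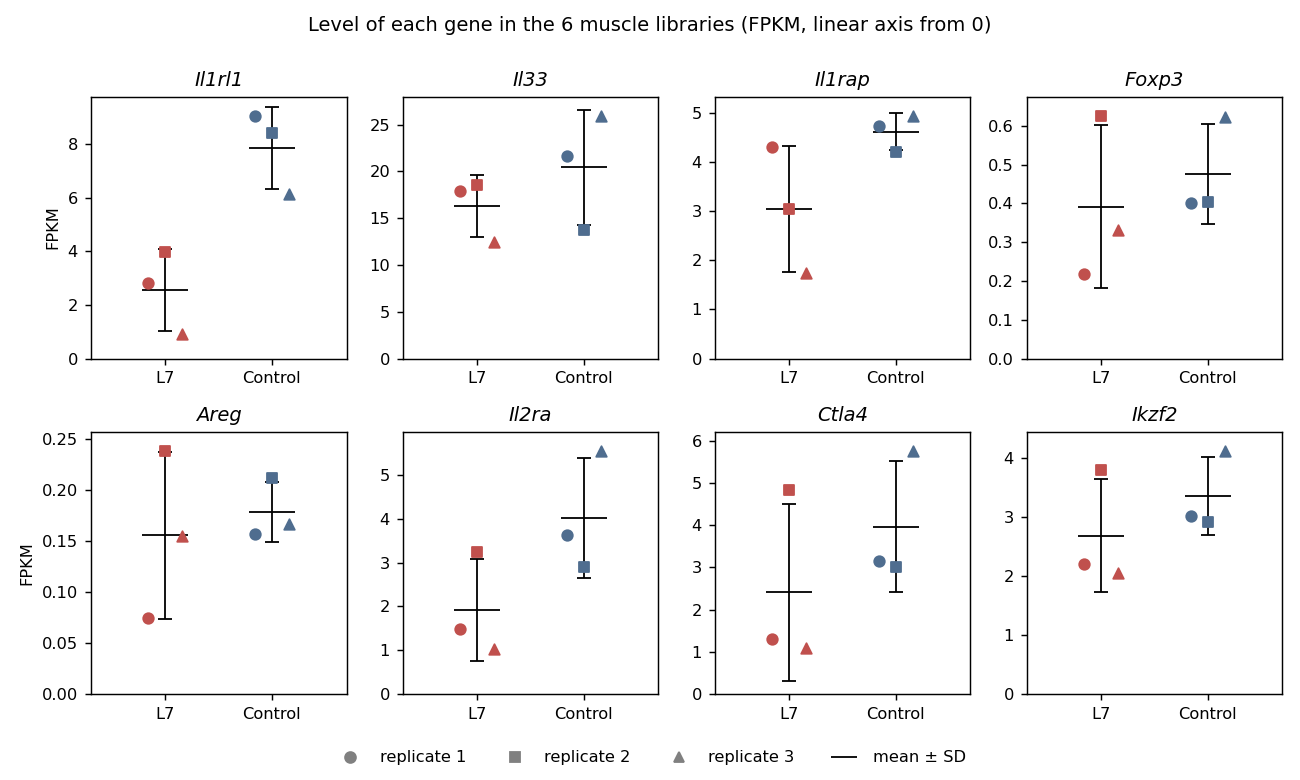
FPKM of each of the 8 genes, with 3 L7 libraries (red) left of 3 Control libraries (blue); marker shapes give the replicate number and black bars the mean ± SD. Il1rl1 is the gene whose groups do not overlap (0.921 to 3.96 FPKM in L7, 6.14 to 9.04 FPKM in Control), while the other 7 overlap.

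Foxp3, the transcription factor that defines regulatory T cells, was at the low end of what these libraries measure. It had 0.219, 0.625 and 0.331 FPKM in L7 and 0.400, 0.403 and 0.624 FPKM in Control. L7 replicate 2 and Control replicate 3 were the highest and almost equal, so the groups overlapped. The reads summed to 92 in L7 (95% exact Poisson interval 74.2 to 113) and to 117 in Control (96.8 to 140.2), intervals that cover counting error only. Foxp3 and Areg did not reach the mean of 1 FPKM needed for testing, which the other 6 genes did.

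Il2ra, the high-affinity chain of the IL-2 receptor, had 1.48, 3.25 and 1.03 FPKM in L7, against 3.63, 2.89 and 5.54 FPKM in Control. L7 replicate 2 lay above Control replicate 2, and the difference was -0.82 ± 0.32. Ctla4, an inhibitory receptor carried at high level by regulatory T cells, had 1.30, 4.83 and 1.09 FPKM in L7 and 3.15, 3.01 and 5.75 FPKM in Control. The spread within L7 was wider than the gap between groups, with L7 replicate 2 above Control replicates 1 and 2, and the difference was -0.67 ± 0.42. It was -1.14 and -0.40 without L7 replicates 2 and 3, and -0.43 without Control replicate 3. Ikzf2, the Ikaros factor Helios of regulatory T cells, had 2.21, 3.80 and 2.06 FPKM in L7 and 3.02, 2.92 and 4.12 FPKM in Control, a difference of -0.26 ± 0.23. It showed the same order of libraries as Ctla4. The difference was -0.46 and -0.14 without L7 replicates 2 and 3, -0.14 without Control replicate 3, and -0.13 after scaling by the median of ratios. Areg had 0.074, 0.238 and 0.155 FPKM in L7 and 0.158, 0.212 and 0.167 FPKM in Control, from 2, 6 and 4 reads in L7 and 4, 5 and 5 reads in Control. At 12 reads in L7 (6.20 to 21.0) and 14 reads in Control (7.65 to 23.5) no difference was detectable at this depth.

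In the authors' deposited table the other 7 genes had log2 fold changes between -0.95 for Il2ra and -0.0080 for Areg, each with an adjusted p of 1. All 6 tested genes had negative differences, as did 10476 of all 14788 tested genes. In bulk muscle, fewer cells of a type and less RNA per cell cannot be told apart, which touches each of these values. Annotated exons of Foxp3, Il1rap and Ikzf2 overlap those of other genes, some on the opposite strand, and the sources used here do not state the strand setting of the counting. Their levels may thus hold reads of those neighbours.

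The order of the libraries for Il1rl1 was set beside that for the other genes. Il1rl1 ran from high to low as Control replicates 1, 2 and 3 and then L7 replicates 2, 1 and 3. Ctla4 and Ikzf2 both ran as Control replicate 3, L7 replicate 2, Control replicates 1 and 2, and L7 replicates 1 and 3. The sum of Cd3d, Cd3e and Cd3g, the CD3 chains of all T cells, had that same order. Of the 15 pairs of libraries, Foxp3 ordered 8 as Il1rl1 did, Areg 9, Il2ra 12, and Il33 and Il1rap 11 each. Ctla4, Ikzf2 and the CD3 sum also ordered 11 each, where the median tested gene ordered 10. Against Foxp3, Areg ordered 14 of 15 pairs alike, Ctla4, Ikzf2 and the CD3 sum 12 each and Il2ra 11, where the median tested gene ordered 8. Within groups, where the contrast plays no part, 2 of 6 pairs were ordered as for Il1rl1 by Foxp3, 3 each by Il1rap and Areg, and 4 each by Il33, Il2ra, Ctla4, Ikzf2 and the median tested gene. These are descriptions over 6 libraries that share depth and composition, and Areg rests on few reads.

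**Figure D2:**
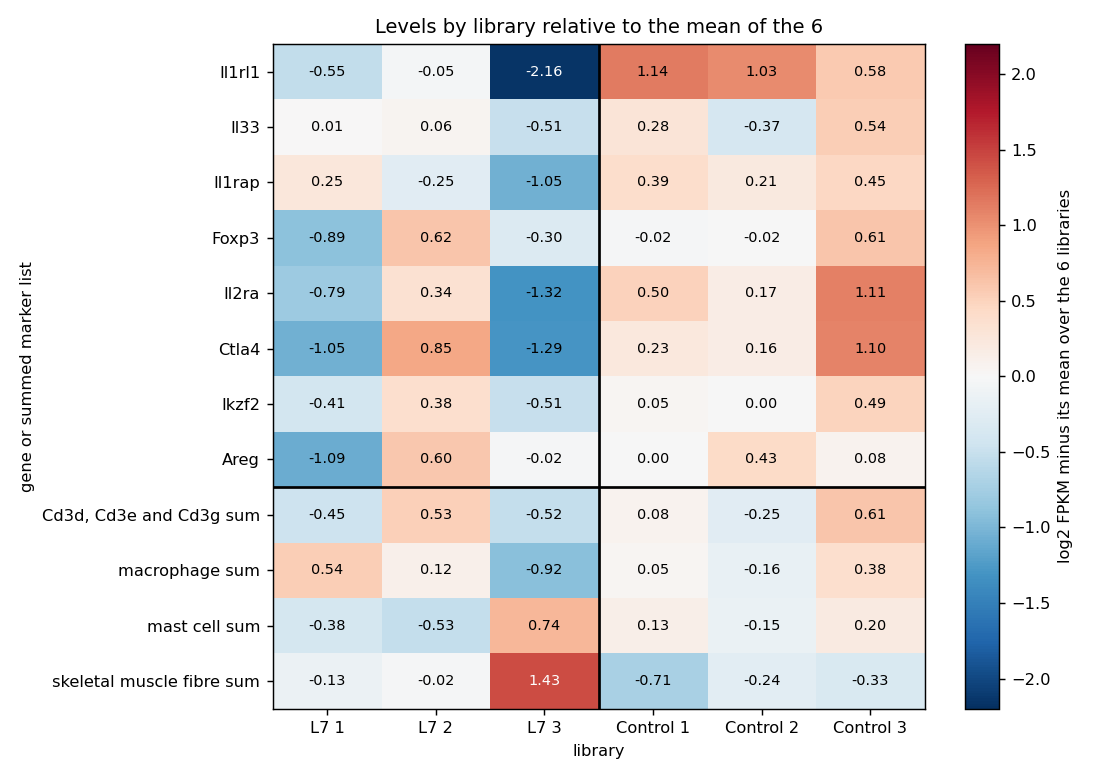
Log2 FPKM minus its mean over the 6 libraries, for the 8 genes (upper rows) and 4 summed marker sets (lower rows), with L7 libraries left of Control libraries. Il1rl1 is negative in all 3 L7 libraries (-0.55, -0.05 and -2.16) and positive in all 3 Control libraries, while Foxp3, Ctla4 and Ikzf2 are positive in L7 replicate 2.

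Ratios within a library compare the genes without the library scaling. Il1rl1 over Il33, receptor over ligand, was 0.157, 0.214 and 0.0737 in L7, against 0.418, 0.610 and 0.237 in Control. Every L7 ratio was below every Control ratio, with means of 0.148 ± 0.0706 in L7 and 0.422 ± 0.187 in Control (SD, n = 3 each). Il1rl1 over the CD3 sum was 0.216, 0.154 and 0.0741 in L7 and 0.481, 0.560 and 0.226 in Control, again without overlap, although L7 replicate 1 and Control replicate 3 differed by little. Both ratios contain the gene chosen by the contrast and are descriptions.

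Foxp3 over the CD3 sum, which sets the regulatory T cell factor against all T cells, was 0.0168, 0.0243 and 0.0266 in L7 and 0.0213, 0.0268 and 0.0230 in Control. The groups overlapped, with means of 0.0226 ± 0.00513 in L7 and 0.0237 ± 0.00284 in Control. Il1rl1 over Foxp3 was 12.8, 6.34 and 2.78 in L7 and 22.6, 20.9 and 9.84 in Control, and L7 replicate 1 lay above Control replicate 3. Il1rl1 over Il1rap was 0.650, 1.30 and 0.526 in L7 and 1.91, 2.00 and 1.24 in Control, and L7 replicate 2 lay above Control replicate 3. Il2ra over Foxp3 was 6.77, 5.20 and 3.10 in L7, against 9.08, 7.18 and 8.88 in Control, and did not overlap, although neither gene alone separated the groups. Foxp3 rests on 18, 48 and 26 reads in L7 and 31, 29 and 57 reads in Control, so each ratio with it carries a large counting error. How often ratios of other genes separate the groups was not determined. Ctla4 over Foxp3 was 5.92, 7.73 and 3.30 in L7 and 7.87, 7.46 and 9.22 in Control, and Ikzf2 over Foxp3 was 10.1, 6.07 and 6.22 in L7 and 7.55, 7.24 and 6.60 in Control. Both overlapped.

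**Figure D3:**
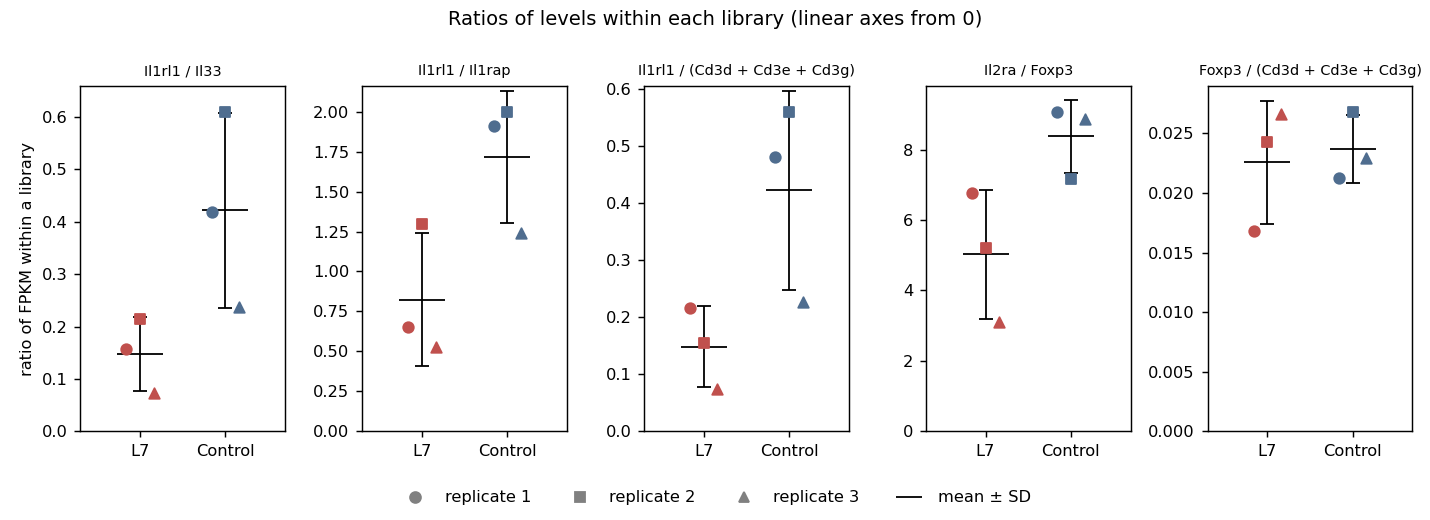
Ratios of FPKM within each library, L7 (red) left of Control (blue), with marker shapes for the replicate number and black bars for the mean ± SD. The 2 ratios of Il1rl1 to Il33 and to the CD3 sum and the ratio of Il2ra to Foxp3 do not overlap between groups, while the Foxp3 share of CD3 transcripts does (0.0168 to 0.0266 in L7, 0.0213 to 0.0268 in Control). Foxp3 rests on 18 to 57 reads per library.

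Il1rl1 lies in a cluster of 6 interleukin 1 receptor genes that spans 477.627 kb of chromosome 1, and its neighbours were not low in every L7 library. Il18r1, the IL-18 binding chain, begins 136 bases after Il1rl1 ends (chr1:40465552-40500854) and had 3.25, 4.22 and 2.17 FPKM in L7 and 4.91, 3.47 and 6.15 FPKM in Control. Its groups overlapped and the difference was -0.47 ± 0.25. Il18rap, the IL-18 accessory chain (chr1:40515362-40551705), had 6.72, 6.24 and 3.78 FPKM in L7 and 11.6, 6.60 and 13.0 FPKM in Control, with a difference of -0.78 ± 0.29 and an adjusted p of 0.580 by limma. Control replicate 2 fell within the L7 range.

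On the other side of Il1rl1, Il1rl2, the receptor of IL-36 (chr1:40324610-40367562), had 8.57, 8.61 and 5.37 FPKM in L7 and 10.7, 10.3 and 6.01 FPKM in Control. Il1r1, the signalling IL-1 receptor (chr1:40225080-40317257), had 29.3, 23.0 and 8.21 FPKM in L7 and 30.4, 24.0 and 24.7 FPKM in Control. Il1r2, the decoy IL-1 receptor (chr1:40074079-40125231), had 16.7, 13.3 and 2.36 FPKM in L7 and 21.1, 13.8 and 22.2 FPKM in Control. In each of the 3 genes L7 replicate 3 was the lowest library and the groups overlapped. The differences were -0.22 ± 0.26, -0.53 ± 0.41 and -1.05 ± 0.59 in the same order. Il1rl2 and Il1r1 changed sign in 1 of 13 alternatives each, and Il1r2 ranged from -1.50 to -0.27. The median of the 5 neighbours was -0.53, and -0.28 without L7 replicate 3.

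Of 93 further genes of these pathways, 88 were in the table and 75 were tested, and limma passed 0 of them at an adjusted p under 0.05, as it did 0.0% of all genes. At an unadjusted p under 0.05, 8 were lower in L7 (4.25% of all tested genes were) and 0 were higher (1.65% of all were). Limma voom on the recovered reads also passed 0 of the 75, with 7 lower at an unadjusted p under 0.05, and limma with median of ratios scaling passed 0, with 5 lower. The median of the 75 differences was -0.36, with 69 negative and 6 positive, beside -0.15 over all tested genes. Without L7 replicate 3 the median was -0.09, and with median of ratios scaling it was -0.23 with 59 negative. The number lower at that p was 12, 17 and 5 without L7 replicates 1, 2 and 3, and 4 and 5 without Control replicates 1 and 3. Every L7 library lay below every Control library for 11 of the 75, beside 13.7% of all genes, and above it for 0, beside 5.49% of all genes.

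Downstream of ST2, 19 signalling genes had a median difference of -0.27, with 17 negative (13 with median of ratios scaling) and 0 at an unadjusted p under 0.05. That median was -0.05 without L7 replicate 3 and -0.10 with median of ratios scaling. Every L7 library lay below every Control library for 4 of the 19, beside 13.7% of all tested genes. They were the kinases Chuk and Irak2, the adaptor Traf6 and the inhibitor Tollip, named after their values were seen. Tollip separated narrowly, at 33.5 FPKM in L7 replicate 1 and 33.6 FPKM in Control replicate 1. Nfkbia, the NF-κB inhibitor that NF-κB itself induces, had 111, 98.6 and 61.6 FPKM in L7 and 118, 107 and 163 FPKM in Control, and the groups overlapped. Tab2, an adaptor of the TAK1 kinase, had 59.3, 62.2 and 36.5 FPKM in L7 and 62.5, 61.3 and 64.8 FPKM in Control, and also overlapped. Among the other ligands of the family, Il1b, the inflammatory cytokine IL-1β, had 143, 151 and 27.6 FPKM in L7 and 162, 110.1 and 185 FPKM in Control. Il1rn, the antagonist of the IL-1 receptor, had 98.8, 78.1 and 19.7 FPKM in L7 and 131, 101 and 138 FPKM in Control, where every L7 library was lower, with an adjusted p by limma of 0.580.

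Of 25 other regulatory T cell genes, 19 were tested, 17 were negative (14 with median of ratios scaling) and 2 were lower at an unadjusted p under 0.05, beside 4.25% of all tested genes. The median was -0.39, and -0.11 without L7 replicate 3. Tnfrsf9, Il10 and Gata3 were the 3 of 19 low in every L7 library, beside 13.7% of all tested genes. Tnfrsf9, the costimulatory receptor 4-1BB, had 3.98, 4.66 and 2.39 FPKM in L7, against 10.5, 6.70 and 12.0 FPKM in Control. All L7 libraries were lower, the difference was -1.20 ± 0.27, and the adjusted p by limma was 0.580. Il10, the anti-inflammatory cytokine IL-10, had 2.93, 2.87 and 1.95 FPKM in L7 and 3.76, 4.09 and 4.36 FPKM in Control, also without overlap, with a difference of -0.51 ± 0.18. Gata3, a factor of ST2-positive regulatory T cells in mouse tissues, had 1.23, 1.74 and 1.60 FPKM in L7 and 2.51, 1.86 and 2.30 FPKM in Control, with a difference of -0.35 ± 0.17. The most abundant genes of the list, Capg, an actin capping protein, and Entpd1, the ectonucleotidase CD39, are also expressed by macrophages, and both overlapped between groups.

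In the IL-2 axis, Jak1, a kinase of the IL-2 receptor, overlapped between groups with 171, 161 and 125 FPKM in L7 and 172, 161 and 183 FPKM in Control. Socs1, a cytokine-induced inhibitor of JAK kinases, had 27.7, 50.3 and 34.9 FPKM in L7, against 86.5, 53.7 and 128 FPKM in Control, with no overlap. Among the CTLA4 ligands and related genes, Cd274, the ligand PD-L1 of the inhibitory receptor PD-1, had 28.5, 34.8 and 16.8 FPKM in L7 and 66.8, 40.5 and 75.9 FPKM in Control, with no overlap. Cd86, a ligand of CTLA4 and CD28, had 17.7, 26.4 and 10.9 FPKM in L7 and 32.5, 24.0 and 31.3 FPKM in Control, where L7 replicate 2 lay inside the Control range. The differences were -1.18 ± 0.34 for Socs1, -1.17 ± 0.32 for Cd274 and -0.71 ± 0.30 for Cd86, each with an adjusted p by limma of 0.580. Il18bp and Pdcd1lg2 complete the 8 genes at an unadjusted p under 0.05 and are named after their values were seen.

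On the amphiregulin side, 7 of 12 genes of the EGF receptor system were tested and 0 had an unadjusted p under 0.05. Adam17, the protease that sheds amphiregulin, had 47.8, 42.0 and 21.5 FPKM in L7 and 47.6, 43.6 and 49.5 FPKM in Control. Rhbdf2, which brings ADAM17 to the cell surface, had 27.2, 26.6 and 15.5 FPKM in L7 and 31.5, 26.3 and 43.2 FPKM in Control. Both overlapped, with L7 replicate 3 the lowest. The 4 tested Ikaros relatives of Ikzf2 had negative differences with a median of -0.38, and the groups overlapped for Ikzf1, a factor of all lymphocytes, and for Ikzf3, the factor Aiolos.

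**Figure D4:**
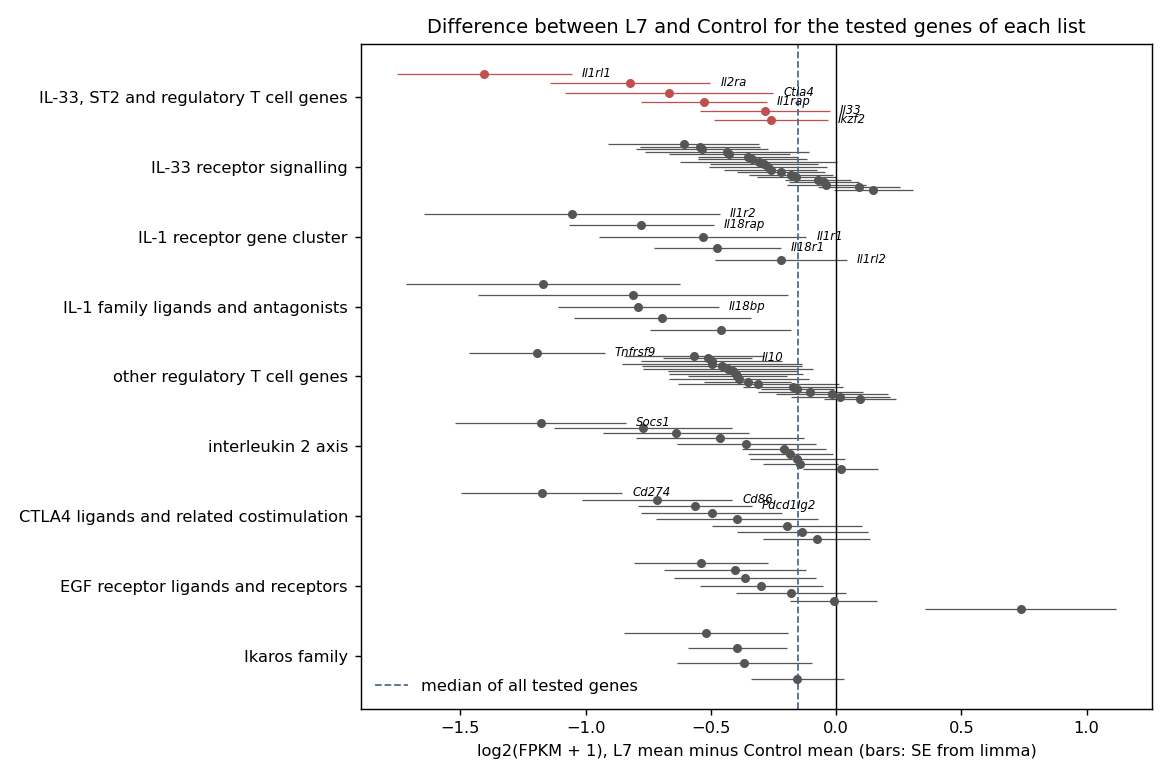
Difference in log2(FPKM + 1), L7 mean minus Control mean, for each tested gene among the 8 genes and the 8 pathway lists, with the SE from limma as bars and the median of all tested genes (-0.15) as a dashed line. Il1rl1 (-1.40) and Tnfrsf9 (-1.20) lie furthest to the left of the genes plotted, and no gene of the pathway lists passed the adjusted threshold.

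The cells that could carry ST2 or release IL-33 differed in their markers between libraries. Mast cell markers summed to 34.8 to 83.5 FPKM in L7 and 45.1 to 57.6 FPKM in Control, and L7 replicate 3 had the highest sum. Of 11 mast cell markers 7 were tested, 3 with negative and 4 with positive differences, and without L7 replicate 3 all 7 were negative. By limma 2 of the 7 were lower at an unadjusted p under 0.05, beside 4.25% of all tested genes, and 0 were higher. Cma1, a mast cell chymase, had 4.07, 2.92 and 20.6 FPKM in L7 and 5.39, 5.80 and 5.02 FPKM in Control. Kit, the receptor of stem cell factor, had 4.32, 5.23 and 3.24 FPKM in L7 and 8.66, 6.32 and 5.16 FPKM in Control, where L7 replicate 2 lay just above Control replicate 3. Hdc, another marker of the list, had a difference of -0.92. The differences of Kit and Hdc were negative in all 13 alternatives, and that of Gata2 in 10. The 4 positive differences were those of Cma1 (0.24), Cpa3 (0.20), Mcpt4 (0.32) and Tpsb2 (0.38). Each kept its sign in 10 of the 13. The part of mast cells in the Il1rl1 result was not tested.

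Markers of group 2 innate lymphoid cells summed to 195 to 339.9 FPKM in L7 and 358 to 485 FPKM in Control, without overlap, and 4 of the 8 tested markers were low in every L7 library, beside 13.7% of all tested genes. The 4 were Arg1, Gata3, Thy1 and Id2, which other cells of muscle also express, while Crlf2, Rora, Il4 and Il7r overlapped. Thy1, a surface protein also of T cells and fibroblasts, had 138, 159 and 90.01 FPKM in L7 and 176, 186 and 164 FPKM in Control. It was the largest part of the sum in every library. Crlf2, a chain of the TSLP receptor, had 76.0, 81.3 and 62.3 FPKM in L7 and 60.7, 65.1 and 95.5 FPKM in Control, a difference of 0.01 ± 0.21 that changed sign in some alternatives. Rora, a factor these cells need, had 8.58, 9.60 and 10.5 FPKM in L7 and 9.30, 8.32 and 8.95 FPKM in Control. Arg1, an arginase that macrophages make too, had 43.8, 45.2 and 10.3 FPKM in L7 and 109.9, 52.0 and 156 FPKM in Control. The cytokines Il5, Il13 and Il9 lay between 0 and 0.199 FPKM in every library. The eosinophil peroxidase gene Epx was at 0 in all 6 libraries, and the 6 eosinophil markers summed to 0.722 to 2.04 FPKM in L7 and 1.43 to 1.45 FPKM in Control. The part of these cells in the Il1rl1 result was not tested.

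Markers of fibro-adipogenic progenitors, the named source of IL-33, summed to 6480.2 to 10317 FPKM in L7 and 8017 to 10641 FPKM in Control. The sums overlapped, but most of each was Col1a1, a collagen chain, with 6972, 9132 and 5347 FPKM in L7 and 6384, 9283 and 6462 FPKM in Control. Of the 10 markers, Ly6a and Pdpn were low in every L7 library and Cd55 was high in every one, beside 13.7% and 5.49% of all tested genes. Ly6a, the surface antigen Sca-1, had 706, 657 and 513 FPKM in L7 and 1041, 783 and 1236 FPKM in Control. Pdpn and Cd55 were named after their values were seen. The part of these cells in the Il33 values was not tested.

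T cell identity markers summed to 78.0 to 155 FPKM in L7 and 93.9 to 163 FPKM in Control, and 10 of 14 had negative differences (7 with median of ratios scaling). Macrophage markers summed to 1105 to 3049.8 FPKM in L7, lowest in L7 replicate 3, and 1878 to 2719.8 FPKM in Control. Of the 7 tested, 6 had negative differences, while without L7 replicate 3 there were 6 with positive ones. The groups overlapped in the T cell and macrophage sums. Muscle fibre markers summed higher in L7, with 31321, 33735 and 92059 FPKM in L7 replicates 1, 2 and 3 and 20872 to 29038 FPKM in Control. All 8 had positive differences, with a median of 0.93, or 0.32 without L7 replicate 3. By limma 0 of the 8 were higher at an unadjusted p under 0.05, beside 1.65% of all tested genes. Every L7 library lay above every Control library for 3 of the 8, beside 5.49% of all tested genes. Endothelial markers overlapped at 188 to 197 FPKM in L7 and 173 to 213 FPKM in Control. B cell markers were few (3.18 to 5.11 FPKM in L7, 3.19 to 6.48 FPKM in Control), neutrophil markers ranged over 51.0 to 299 FPKM in L7 and 164 to 269 FPKM in Control, and epidermal markers over 2.71 to 3.23 FPKM in L7 and 2.60 to 10.1 FPKM in Control. The part of these differences in the Il1rl1 result was not tested.

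The genes whose level over the 6 libraries was most like that of Il1rl1 were ranked by the root mean square difference of log2(FPKM + 1) after centring each gene. Genes without a symbol, with a Gm number as symbol or with a symbol ending in Rik were left out of the 10. The 10 nearest were Crabp2 (0.195), Tnf (0.245), Ccn2 (0.271), Tes (0.275), Tubb3 (0.280), Nsg1 (0.298), Podnl1 (0.300), Sphk1 (0.310), Bcat1 (0.311) and Cdr2 (0.311), against a median of 0.721 over all tested genes. Crabp2, a retinoic acid binding protein, had 8.73, 10.8 and 5.22 FPKM in L7 and 20.2, 23.2 and 15.2 FPKM in Control. Tnf, the cytokine tumour necrosis factor, had 17.7, 17.3 and 6.48 FPKM in L7 and 33.8, 25.4 and 28.3 FPKM in Control. Every L7 library lay below every Control library for 6 of the 10, Crabp2 and Tnf included, beside 13.7% of all tested genes. Podnl1, Sphk1, Bcat1 and Cdr2 overlapped. Likeness to Il1rl1 takes in its difference between the groups, so nothing further is read from this.

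None of the other 7 genes was among the 10. Il2ra was the nearest at 0.505, in place 740 of 14787, followed by Il1rap at 0.546 in place 1470, Ctla4 at 0.618, Ikzf2 at 0.692 and Il33 at 0.712. These places count every other tested gene, with or without a symbol. Ikzf2 and Il33 were thus near the median of all genes, and Foxp3 and Areg were too low to be ranked.

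**Figure D5:**
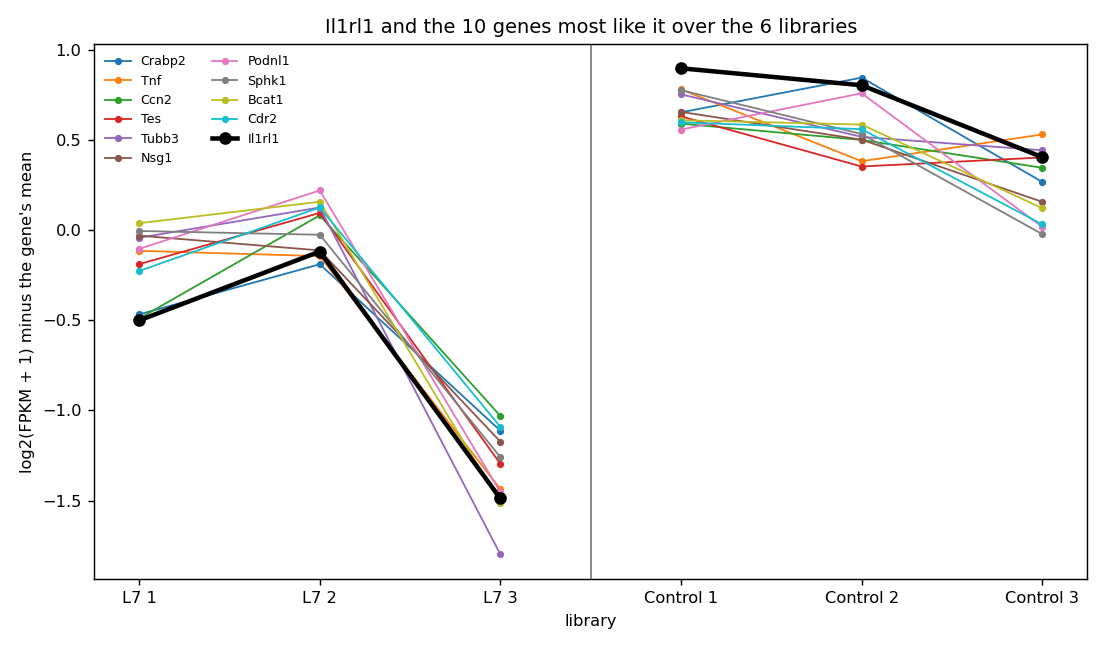
Log2(FPKM + 1) minus the mean of each gene, by library, for Il1rl1 (black) and the 10 genes most like it (colours), with L7 libraries left of Control libraries; lines join the libraries of a group only to guide the eye. All 11 profiles are lowest in L7 replicate 3 and have a higher mean in Control than in L7.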

How the data were processed

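RNA from 3 L7 and 3 Control libraries of cardiotoxin-injured tibialis anterior muscle was analysed, with groups taken from the labels. The deposited FPKM table was made by the authors. Build mm10 and, without roles, DESeq 1.12.0, HISAT2 2.0.4, TopHat2 2.0.12 and Bowtie2 2.2.3 are named in the submitters' processing notes. The sources used here do not state the counting program, annotation or strand setting. The authors' deposited comparison holds, per the file headers, the mean signal of each group as read counts over size factors. It also holds, as deposited, the log2 of the fold, its p-value and the adjusted one. The 2 deposited enrichment tables were not used.

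Gene symbols came from GENCODE M21 of the same build (51633 of 52369 genes matched). Whole reads were recovered from the steps between FPKM values, and 100% of 152096 values above 0 were within 0.05 of a whole number. Reads in genes per library, 19420012 to 24663153, are the depth. The test was limma 3.58.1 (on R 4.3.3), run with its trend option on log2(FPKM + 1), which understates changes of low genes, for 14788 genes with mean FPKM of at least 1, two-sided, group only, with Benjamini-Hochberg adjustment over all of them and a threshold of 0.05. It was tested on simulated data. Alternatives were another pseudocount (0.1), no filter, median of ratios scaling, limma voom on the recovered reads, array weights, a replicate block and leaving out each library. The members and lists were chosen with earlier results of these data known. Named were the 8 genes, in each list the genes past the threshold or else the 2 of highest mean FPKM (any gene of mean FPKM of at least 1 in the receptor cluster, regulatory T cell, mast cell and innate lymphoid cell lists), and the 10 genes most like Il1rl1. Promoter windows and miRNA sequences are from RefSeq (GRCm38.p6), and the software was Python 3.11.15 with matplotlib 3.10.9, scipy 1.17.1, numpy 2.4.6 and pandas 2.3.3.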

Additional observations from a re-analysis of the deposited data

How the results depend on the processing

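Il1rl1 was lower in L7 under all 13 alternatives, with differences from -1.78 (pseudocount 0.1) to -0.97 (median of ratios scaling without L7 replicate 3). Leaving out 1 library at a time gave -1.70 to -1.01, and limma voom gave -1.61. Il33, Il1rap, Il2ra, Ctla4 and Ikzf2 also kept a negative sign in all 13, and were nearest to 0 with array weights for Il33 (-0.04), Ctla4 (-0.19), Il2ra (-0.45) and Ikzf2 (-0.04), and with median of ratios scaling without L7 replicate 3 for Il1rap (-0.24). Foxp3 and Areg stayed below the filter, so voom and array weights gave no value for them. With pseudocount 0.1 they were -0.29 and -0.17, and Areg changed sign in 1 of its 11 alternatives. Of the 10 genes most like Il1rl1, 6 were shared with the ranking at pseudocount 0.1 and 7 with that after median of ratios scaling. By limma 0 of all genes passed the adjusted threshold, 244 were higher and 629 lower at an unadjusted p under 0.05 (412 and 499 with median of ratios scaling, 399 and 487 with voom), and the number passing was 3 with array weights and 1 with median of ratios scaling without L7 replicate 3, while leaving out 1 library gave 0 to 1. Of the pathway genes 0 passed under any of the 13. The correlations of deviations of same-numbered libraries were 0.32, -0.07 and 0.09, and not every library correlated best with its own number. With deviations taken from means of 3 libraries, these values cannot show whether the replicate numbers pair the libraries. With a replicate block 0 genes passed, 391 were higher and 787 lower at an unadjusted p under 0.05, and Il1rl1 stayed at -1.40. There were 3 libraries a group, with L7 replicate 3 apart from the others. The groups overlapped for Foxp3 and Areg, whose levels were near the depth limit, so a difference in them could be missed.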
